A study of Mus musculus with 6 samples.

Results

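The SLC25 family of mitochondrial carriers was followed in epididymal white adipose tissue, the fat depot beside the epididymis, of obese mice with and without CD44, a cell surface receptor for hyaluronan. Its members were taken as every gene whose symbol is Slc25a followed by a number alone. This gave 47 of the 22322 genes listed, of which 40 had enough counts to be tested among 13829 genes. There were 3 RNA sequencing libraries of CD44 KO mice and 3 of wild type (WT) mice, and both groups ate a high fat diet for 17 weeks. The labels do not name the strain, the age or the way in which CD44 was knocked out. The libraries were made from poly(A)-selected RNA from the whole depot, so adipocytes, immune cells and surface cells were measured together.

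SLC25 proteins form the main set of gates across the inner mitochondrial membrane. Most swap one small molecule for another, such as ADP for ATP, citrate for malate or carnitine for acylcarnitine, and a few members sit in peroxisomes or in the outer mitochondrial membrane. In white fat, the citrate carrier supplies carbon for fatty acid synthesis, while the acylcarnitine carrier delivers fatty acids for oxidation.

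The libraries held between 15543317 and 18765009 expected counts. Cd44 was at 1.66, 3.0 and 2.2 CPM (counts scaled to library size) in CD44 KO libraries, against 182, 570.0 and 313 CPM in WT libraries, and it fell by 7.27 on the log2 scale (SE 0.58, edgeR adjusted p = 0.0126). Without CD44 KO replicate 3 or WT replicate 3 the Cd44 difference stayed at -7.25 and -7.36 but its adjusted p was 0.0785 and 0.122. Within the CD44 KO group the libraries were not alike. CD44 KO replicate 2 carried epididymal transcripts: the 10 epididymis markers summed to 5.69, 7095 and 2.64 FPKM (a level scaled for transcript length and library size) in CD44 KO libraries, against 0.68 to 1.52 FPKM in WT libraries, with Lcn9 at 0 in all 6. Adam7 and Crisp1, the epididymal genes tested, had 1207 and 9623 CPM in that library and were not called (edgeR adjusted p = 0.0774 and 0.115). The 15 pan-macrophage markers summed to 3630.2, 189 and 733 FPKM in CD44 KO libraries, against 3599, 7305 and 6499 FPKM in WT libraries, so that CD44 KO replicate 1 was at the level of WT replicate 1. None of the 15 passed the test, and all 15 had negative log2 fold changes (median -2.10). At an unadjusted edgeR p under 0.05, 6 (40%) were lower and 0 higher, against 14.7% and 16.3% of all genes tested. The pair of lowest p was C1qa at -2.10 (SE 0.65, edgeR adjusted p = 0.102) and Mrc1 at -2.05 (SE 0.64, edgeR adjusted p = 0.105). The 15 mature adipocyte markers summed to 34779 to 59793 FPKM in CD44 KO libraries, against 9957 to 29580.1 FPKM in WT libraries, and 14 of 15 had positive log2 fold changes (median 1.56), with Cfd (complement factor D, adipsin) called higher. The negative one was Lep, with a log2 difference of -1.75 (SE 0.41, edgeR adjusted p = 0.0682). At an unadjusted edgeR p under 0.05, 11 adipocyte markers (73.3%) were higher and 1 (6.67%) lower. Lep was at 1147, 755 and 708 CPM in CD44 KO libraries, against 4475, 1834 and 2471 CPM in WT libraries. Cfd was at 8013, 6802 and 14872 CPM in CD44 KO libraries, against 740, 104 and 249 CPM in WT libraries, a rise of 4.76 on the log2 scale (SE 0.85). The 8 mesothelial markers summed to 40, 261 and 21.9 FPKM in CD44 KO libraries, against 2.65 to 6 FPKM in WT libraries, and Krt19 was called higher. All 8 (100%) were higher at an unadjusted edgeR p under 0.05. Most of the sum in CD44 KO replicate 2, the library with epididymal transcripts, was Krt18 and Krt8, at 143.75 and 93.64 FPKM. Krt19 was at 10.8, 17.7 and 4.01 CPM in CD44 KO libraries, against 1.18, 0.916 and 0.47 CPM in WT libraries, a rise of 3.66 (SE 0.65). Over the fits that leave out 1 library the log2 differences were 4.31 to 5.82 for Cfd and 3.11 to 4.05 for Krt19. Neither call held without CD44 KO replicate 2, CD44 KO replicate 3, WT replicate 2 or WT replicate 3 (edgeR adjusted p 0.0734, 0.129, 0.139 and 0.25 for Cfd, and 0.0747, 0.0812, 0.17 and 0.246 for Krt19), nor that of Krt19 without WT replicate 1 (0.0677). Skeletal muscle markers summed to 16.9 to 24.5 FPKM in CD44 KO libraries, against 5.51 to 32.9 FPKM in WT libraries, with Acta1, the one tested, at a log2 difference of 0.02 (SE 0.62). In such bulk samples, fewer cells of a type and less RNA per cell cannot be told apart, and the part these cell types have in the carrier values was not tested.

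Of the 40 carriers tested, 2 rose in CD44 KO tissue and 0 fell at an adjusted p under 0.05 (edgeR's quasi-likelihood test, Benjamini-Hochberg over all genes tested). The share of all genes called was 1.74% higher and 0.882% lower. The 2 that rose were Slc25a42, the mitochondrial coenzyme A carrier, and Slc25a44, a carrier of branched-chain amino acids. At an unadjusted p under 0.05, 9 carriers (22.5%) were higher and 4 (10%) were lower, against 16.3% and 14.7% of all genes. In CPM, every CD44 KO library lay above every WT library in 13 carriers (32.5%) and below in 4 (10%), against 19.7% and 18.1% of all genes. Among these 13, Slc25a4, Slc25a17, Slc25a28 and Slc25a36 overlap in FPKM, and the shares over all genes were not computed on FPKM. The median log2 fold change was 0.06 over the carriers and 0.03 over all genes, and 25% of carriers and 23.9% of all genes differed by more than 1 on the log2 scale. There were 24 positive and 16 negative log2 fold changes among the carriers, and they ranged from -3.31 (Slc25a43) to 2.99 (Slc25a29).

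**Figure D1:**
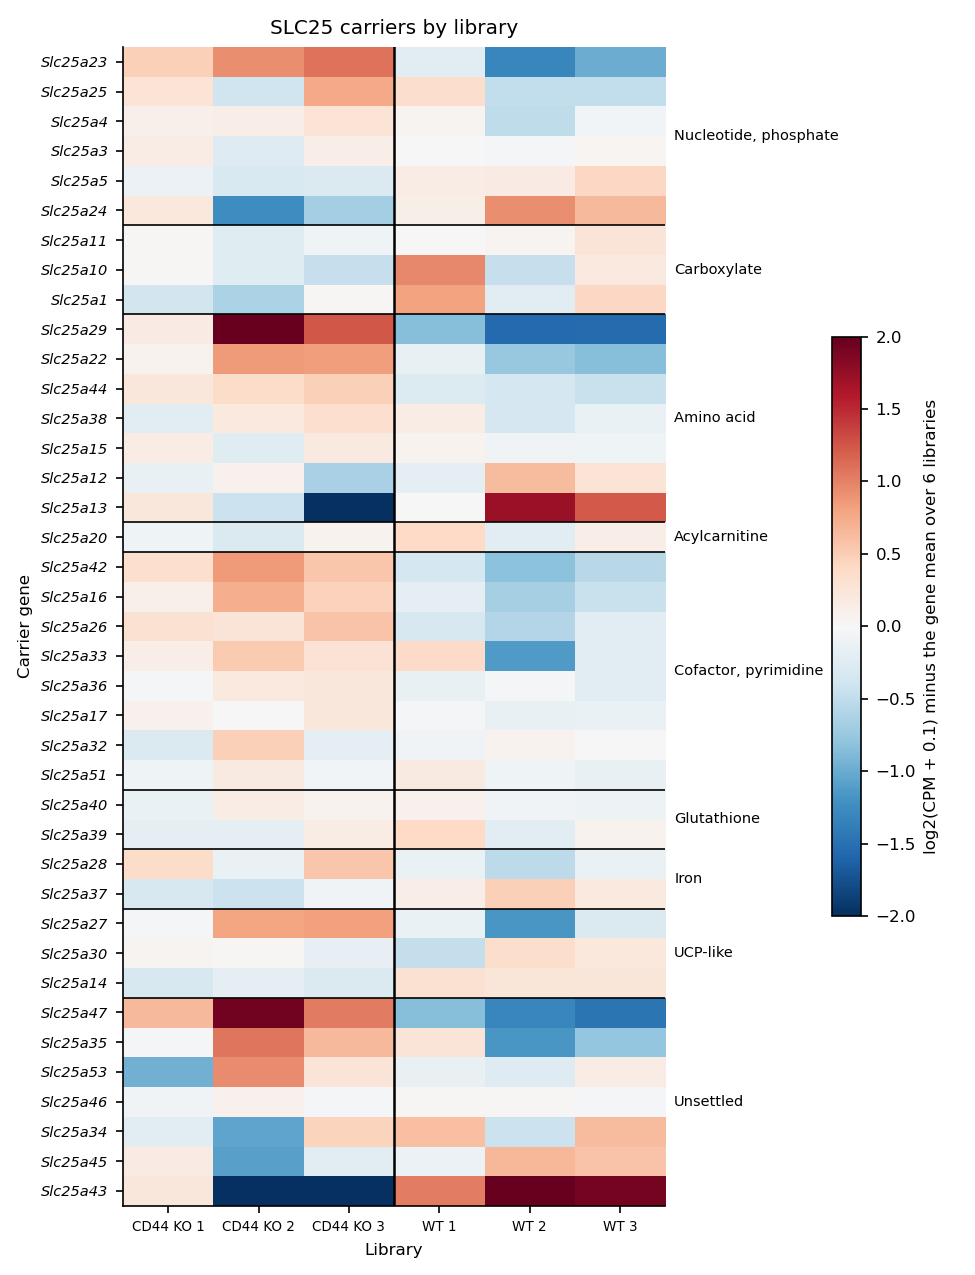
Heat map of 39 of the 40 carriers tested (rows, grouped by role) in the 6 libraries (columns, CD44 KO left of WT). Colour is log2(CPM + 0.1) minus the gene's mean over the 6 libraries, cut at 2 in either direction; CD44 KO replicate 1 is often the CD44 KO library nearest to WT, as for Slc25a24 and Slc25a29.

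The number of calls rested on single libraries. Leaving out CD44 KO replicate 1 gave 7 carriers higher (Slc25a16, Slc25a22, Slc25a23, Slc25a29, Slc25a42, Slc25a44 and Slc25a47) and 2 lower (Slc25a24 and Slc25a43), in a fit that called 7.13% of all genes higher and 9.65% lower. Leaving out WT replicate 1 gave 1 higher, Slc25a23, and 0 lower, against 1.74% and 0.435% of all genes. Leaving out CD44 KO replicate 2, CD44 KO replicate 3, WT replicate 2 or WT replicate 3 gave 0 in either direction. Over all genes these fits called between 0 and 1007 genes higher and between 0 and 1363 lower. DESeq2 on the 6 libraries, which gave a p for 47 carriers among 18178 genes, called 8 carriers higher and 1 lower. Over those 18178 genes it called 8.18% higher and 8.03% lower.

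**Figure D2:**
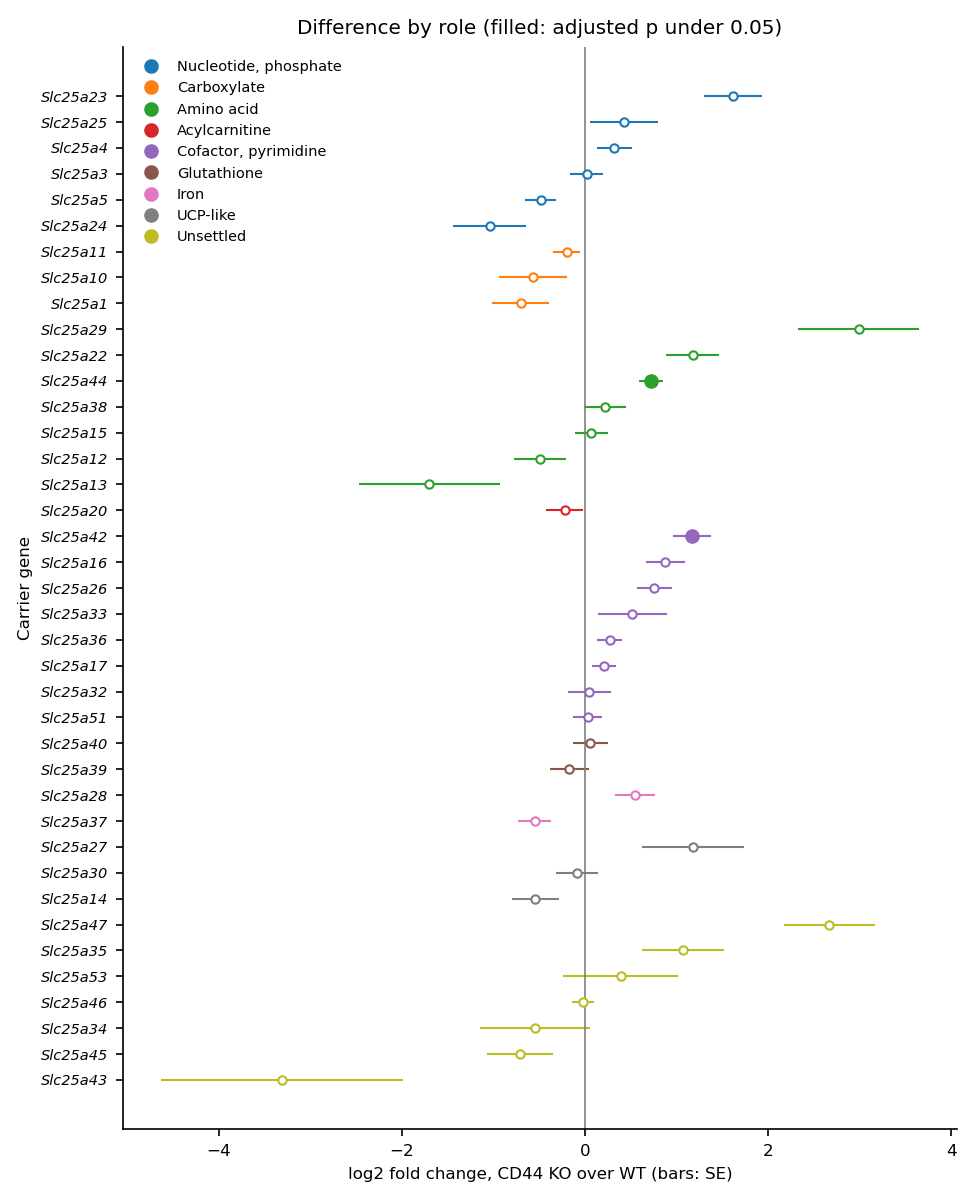
Log2 fold change of CD44 KO over WT with its SE (horizontal axis) for 39 of the 40 carriers tested (vertical axis), coloured by role. Filled points mark the 2 carriers called, Slc25a42 and Slc25a44; all 8 cofactor and pyrimidine nucleotide carriers drawn lie at or above 0.03 and all 3 carboxylate carriers at or below -0.20.

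By level, the family was carried by few members. The carriers summed to 1439, 1221 and 1465 FPKM in CD44 KO libraries, against 1765, 1315 and 1608 FPKM in WT libraries, and the ranges overlap. The 8 members of highest mean FPKM made up 69.3% to 74% of that sum in CD44 KO libraries and 76.9% to 80.9% in WT libraries. In order of mean FPKM over all 6 libraries they were Slc25a5, Slc25a3, Slc25a1, Slc25a10, Slc25a4, Slc25a39, Slc25a11 and Slc25a20. Slc25a5 and Slc25a3 averaged 259 and 258 FPKM and cannot be ordered.

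**Figure D3:**
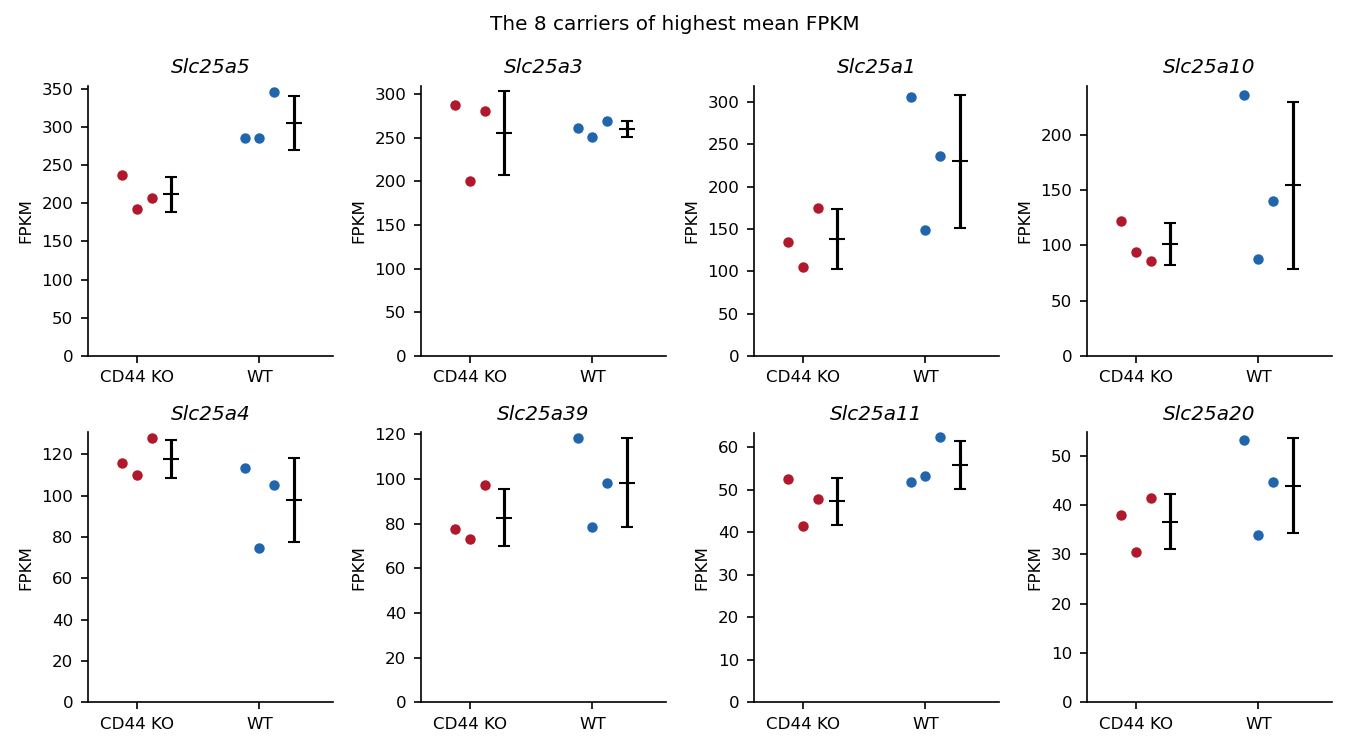
FPKM per library (points) of the 8 most abundant carriers, with mean and SD of 3 libraries beside them, CD44 KO left of WT; each vertical axis starts at 0. Slc25a5 is the one panel of the 8 in which every CD44 KO library is below every WT library, at 192 to 237 against 285 to 346 FPKM.

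Among carriers of adenine nucleotides and phosphate, 4 of 6 tested members had positive and 2 negative log2 fold changes (median 0.17), and none was called. Slc25a5, or ANT2, exchanges ADP for ATP in dividing and many other cells. It was at 291, 254 and 258 CPM in CD44 KO libraries, against 348, 353 and 420.1 CPM in WT libraries. Every CD44 KO library was lower, but the log2 difference of -0.48 (SE 0.17) did not pass (edgeR adjusted p = 0.118); DESeq2 called it (adjusted p = 0.0209). Slc25a4, or ANT1, the isoform of heart and muscle, ran the other way with 220.3, 226 and 248 CPM in CD44 KO libraries, against 214, 144 and 198 CPM in WT libraries. The groups do not overlap in CPM but do in FPKM, and the log2 difference of 0.32 (SE 0.19) did not pass (edgeR adjusted p = 0.292). Slc25a3, which brings phosphate to the ATP synthase, was at 287, 200 and 280 FPKM in CD44 KO libraries, against 261, 250 and 269 FPKM in WT libraries. The lowest value was CD44 KO replicate 2, the ranges overlap, and the log2 difference was 0.02 (SE 0.18).

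The ATP-Mg/phosphate carriers, which adjust the adenine nucleotide pool of the matrix in response to calcium, had fold changes of both signs. Slc25a23 was at 78.5, 107 and 120 CPM in CD44 KO libraries, against 48.3, 22.8 and 28.3 CPM in WT libraries. All CD44 KO libraries were higher, with a log2 difference of 1.62 (SE 0.32) that narrowly missed the threshold (edgeR adjusted p = 0.055); DESeq2 called it (adjusted p = 0.000167). Slc25a24 was at 61.3, 22.4 and 33.1 CPM in CD44 KO libraries, against 57.4, 101 and 82.5 CPM in WT libraries. CD44 KO replicate 1 lay above WT replicate 1 while the other CD44 KO libraries lay below every WT library, and the log2 difference was -1.04 (SE 0.40, edgeR adjusted p = 0.143). Without CD44 KO replicate 1, Slc25a24 was called lower, at -1.53 (adjusted p = 0.033). Slc25a25 had a log2 difference of 0.43 (SE 0.37).

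The tested carboxylate carriers all had negative log2 fold changes (3 of 3, median -0.57), and none was called. Slc25a1, the citrate carrier, was at 135.1, 105 and 175 FPKM in CD44 KO libraries, against 306, 148 and 236 FPKM in WT libraries. The ranges overlap, since CD44 KO replicate 3 exceeded WT replicate 2, and the log2 difference was -0.70 (SE 0.31, edgeR adjusted p = 0.179). Slc25a10, which exchanges malate or succinate for phosphate, was at 122, 94.2 and 86.2 FPKM in CD44 KO libraries, against 236, 87.3 and 140.01 FPKM in WT libraries. WT replicate 1 was far above the rest: the log2 difference of -0.57 (SE 0.37) became -0.11 without it. Slc25a11, the oxoglutarate/malate carrier of the malate-aspartate shuttle, was at 52.5, 41.4 and 47.8 FPKM in CD44 KO libraries, against 51.8, 53.2 and 62.4 FPKM in WT libraries. CD44 KO replicate 1 lay within the WT range, and the log2 difference was -0.20 (SE 0.15). Slc25a1 and Slc25a10 together made 17.9%, 16.3% and 17.9% of summed carrier FPKM in CD44 KO libraries, against 30.7%, 17.9% and 23.4% in WT libraries.

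Among the amino acid carriers, 5 of 7 tested members had positive log2 fold changes (median 0.22) and 1 was called. At an unadjusted p under 0.05, 3 (42.9%) were higher and 0 lower, against 16.3% and 14.7% of all genes. Slc25a44 lies on chromosome 3 (88410498 to 88425139, minus strand, GRCm38). It was at 71.3, 78.3 and 85.0 CPM in CD44 KO libraries, against 50.1, 47.6 and 44.6 CPM in WT libraries. No CD44 KO library came near a WT library, and Slc25a44 rose by 0.72 on the log2 scale (SE 0.13, edgeR adjusted p = 0.0497). Without CD44 KO replicate 1 it was still called (adjusted p = 0.0305). Leaving out CD44 KO replicate 2, CD44 KO replicate 3, WT replicate 1, WT replicate 2 or WT replicate 3 gave adjusted p values of 0.0908, 0.145, 0.0626, 0.16 and 0.259, with log2 fold changes of 0.65 to 0.78 in all 6 such fits.

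Slc25a22, a mitochondrial glutamate carrier, was at 53.2, 90.8 and 89.6 CPM in CD44 KO libraries, against 45.6, 29.9 and 27.8 CPM in WT libraries. The groups do not overlap, though CD44 KO replicate 1 and WT replicate 1 lay close, and the log2 difference was 1.18 (SE 0.29, edgeR adjusted p = 0.074). Slc25a29, a carrier of basic amino acids, was at 4.16, 21.9 and 8.87 CPM in CD44 KO libraries, against 2.0, 1.19 and 1.2 CPM in WT libraries. CD44 KO replicate 2 held the highest value by far, yet every CD44 KO library was above every WT library. The log2 difference of 2.99 (SE 0.66, edgeR adjusted p = 0.0638) was 2.15 without CD44 KO replicate 2 (adjusted p = 0.0864).

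The remaining amino acid carriers did not pass either threshold. Slc25a13 (citrin) and Slc25a12 (aralar), the aspartate/glutamate carriers of the malate-aspartate shuttle, had log2 differences of -1.70 (SE 0.77) and -0.49 (SE 0.28). Slc25a38, the glycine carrier needed for haem synthesis, had 0.22 (SE 0.23), and Slc25a15, the ornithine carrier of the urea cycle, had 0.07 (SE 0.18). Slc25a20, the single acylcarnitine carrier, was at 38, 30.6 and 41.3 FPKM in CD44 KO libraries, against 53.1, 34 and 44.6 FPKM in WT libraries. These ranges overlap, with a log2 difference of -0.22 (SE 0.20, edgeR adjusted p = 0.475).

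All 9 cofactor and pyrimidine nucleotide carriers had positive log2 fold changes (median 0.27). Of them, 3 (33.3%) were higher at an unadjusted p under 0.05 and 1 was called higher, against 16.3% and 1.74% of all genes. Those nearest 0 changed sign in some fits, such as Slc25a32 (-0.23 to 0.18 when leaving out 1 library) and Slc25a51 (-0.06 to 0.15, and -0.11 with limma on FPKM). Slc25a42 lies on chromosome 8 (70184340 to 70212305, minus strand, GRCm38). It was at 21.0, 29.8 and 24.3 CPM in CD44 KO libraries, against 12.9, 9.27 and 11.2 CPM in WT libraries. The lowest CD44 KO library was well above the highest WT library, and Slc25a42 rose by 1.17 on the log2 scale (SE 0.21, edgeR adjusted p = 0.0464). Without CD44 KO replicate 1 the adjusted p was 0.0248. Leaving out CD44 KO replicate 2, CD44 KO replicate 3, WT replicate 1, WT replicate 2 or WT replicate 3 gave 0.081, 0.13, 0.0556, 0.16 and 0.249, with log2 fold changes of 1.03 to 1.31 in all 6 such fits.

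Slc25a16, linked to coenzyme A supply of mitochondria, was at 51.8, 80.2 and 66.4 CPM in CD44 KO libraries, against 42.0, 30.5 and 35.5 CPM in WT libraries. The groups do not overlap, and the log2 difference was 0.88 (SE 0.21, edgeR adjusted p = 0.0718). Slc25a26, which imports the methyl donor S-adenosylmethionine, was at 14.5, 14.1 and 17.5 CPM in CD44 KO libraries, against 9.37, 7.76 and 10.1 CPM in WT libraries. Again no library crossed over, with a log2 difference of 0.76 (SE 0.19, edgeR adjusted p = 0.0751). Log2 differences of 0.03 to 0.52 that did not pass were found for Slc25a33 and Slc25a36 (pyrimidine nucleotides), Slc25a17 (a peroxisomal carrier of coenzyme A and related cofactors), Slc25a32 (folate and FAD) and Slc25a51 (NAD).

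**Figure D4:**
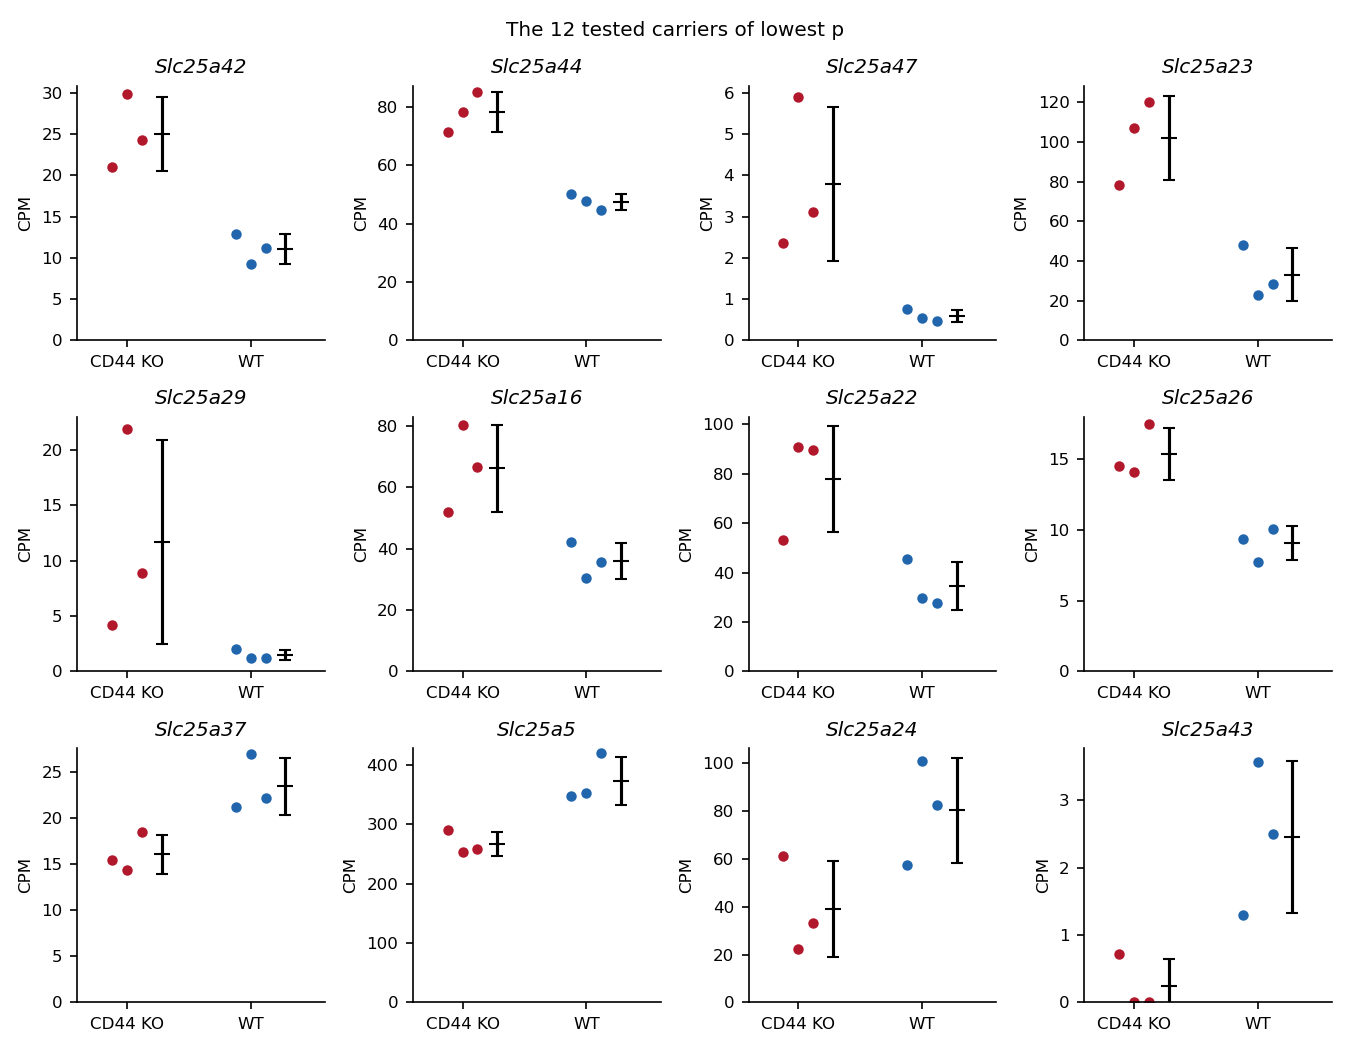
CPM per library (points) of the 12 tested carriers of lowest p, with mean and SD of 3 libraries, CD44 KO left of WT, each vertical axis starting at 0. In 11 of the 12 panels the CD44 KO and WT points do not overlap, which a choice by lowest p favours. Over all genes tested, CD44 KO lay wholly above WT in 19.7% and wholly below in 18.1%. In Slc25a24 CD44 KO replicate 1 lies among the WT points.

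The glutathione carriers showed small differences. Slc25a39, the more abundant, was at 77.7, 73 and 97.2 FPKM in CD44 KO libraries, against 118, 78.4 and 98 FPKM in WT libraries. The ranges overlap (log2 difference -0.17, SE 0.21), and the difference was 0.02 without WT replicate 1. Its relative Slc25a40 had 0.06 (SE 0.19).

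The mitoferrins, which import iron for haem and iron-sulfur clusters, had log2 fold changes of opposite sign. Slc25a37, or mitoferrin-1, known from red cell precursors, was at 15.4, 14.3 and 18.4 CPM in CD44 KO libraries, against 21.2, 26.9 and 22.1 CPM in WT libraries. All CD44 KO values were lower, at a log2 difference of -0.55 (SE 0.18, edgeR adjusted p = 0.106). Slc25a28, or mitoferrin-2, the more widely expressed one, had a log2 difference of 0.55 (SE 0.22, edgeR adjusted p = 0.154). In CPM, CD44 KO replicate 2 was only just above the highest WT library. In FPKM it was below that library, at 15.21 against 16.58.

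Of the uncoupling-protein-like carriers, Slc25a27 (UCP4) had a log2 difference of 1.18 (SE 0.56), Slc25a14 (UCP5) of -0.54 (SE 0.26) and Slc25a30 of -0.09 (SE 0.23), and none passed. Among carriers without a settled substrate, 3 of 7 tested were positive and 4 negative (median -0.02). Slc25a47, known as a liver carrier, was at 2.37, 5.89 and 3.11 CPM in CD44 KO libraries, against 0.766, 0.539 and 0.47 CPM in WT libraries. Every CD44 KO library was higher, at a log2 difference of 2.67 (SE 0.50, edgeR adjusted p = 0.0511). It was 2.20 without CD44 KO replicate 2 (adjusted p = 0.0864).

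Slc25a43, on the X chromosome, had 12, 0 and 0 counts in CD44 KO libraries, against 22, 66 and 48 counts in WT libraries. Only CD44 KO replicate 1 held any, and it stayed below every WT library. The log2 difference of -3.31 had an SE of 1.32 (edgeR adjusted p = 0.149). Set against a floor of 3 counts over CD44 KO replicates 2 and 3, those libraries were at least 26.2-fold lower than the WT mean, a limit that covers counting error only. They were picked for their 0 counts, and CD44 KO replicate 1 was at 0.712 CPM against a WT mean of 2.45 CPM. The fit on all libraries gave 9.93-fold lower, with an interval of 0.791 to 125 that includes no change. Slc25a45, Slc25a34, Slc25a35 and Slc25a53 had log2 differences of -0.71 (SE 0.36), -0.54 (SE 0.60), 1.07 (SE 0.45) and 0.39 (SE 0.63). Slc25a46, an outer membrane protein of mitochondrial dynamics, had -0.02 (SE 0.12).

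The other 7 members stayed under the count filter and were not tested. Slc25a2, Slc25a18, Slc25a31, Slc25a41 and Slc25a54 had at most 8 counts in any library. Slc25a21, the oxoadipate carrier, had 8, 43 and 2 counts in CD44 KO libraries, against 1, 2 and 2 counts in WT libraries. Slc25a48 had 13, 96 and 0 counts in CD44 KO libraries, against 1, 6 and 5 counts in WT libraries. Both were highest in CD44 KO replicate 2, the library with epididymal transcripts.

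Ratios between related carriers within a library were also compared, since depth cancels in them. The 4 pairs were chosen after their values were seen. The ratio of Slc25a4 to Slc25a5 was 0.488, 0.573 and 0.618 in CD44 KO libraries, against 0.396, 0.262 and 0.304 in WT libraries. The ratio of Slc25a23 to Slc25a24 was 1.42, 5.27 and 4.01 in CD44 KO libraries, against 0.981, 0.274 and 0.445 in WT libraries. In both, all CD44 KO libraries exceeded all WT libraries. The ratio of Slc25a28 to Slc25a37 did so too, at 5.77, 4.62 and 5.79 in CD44 KO libraries, against 2.93, 1.75 and 2.87 in WT libraries. The log2 differences were 0.82, 2.66 and 1.13, each with an exact two-sided permutation p of 0.1, the smallest that 3 against 3 libraries can give, and 0.133 after adjustment over the 4 pairs. Slc25a12 over Slc25a13 overlapped, with an exact permutation p of 0.2. As the pairs were chosen with their values in view, these p-values cannot test whether the ratios differ, and the adjustment does not cover that choice.

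**Figure D5:**
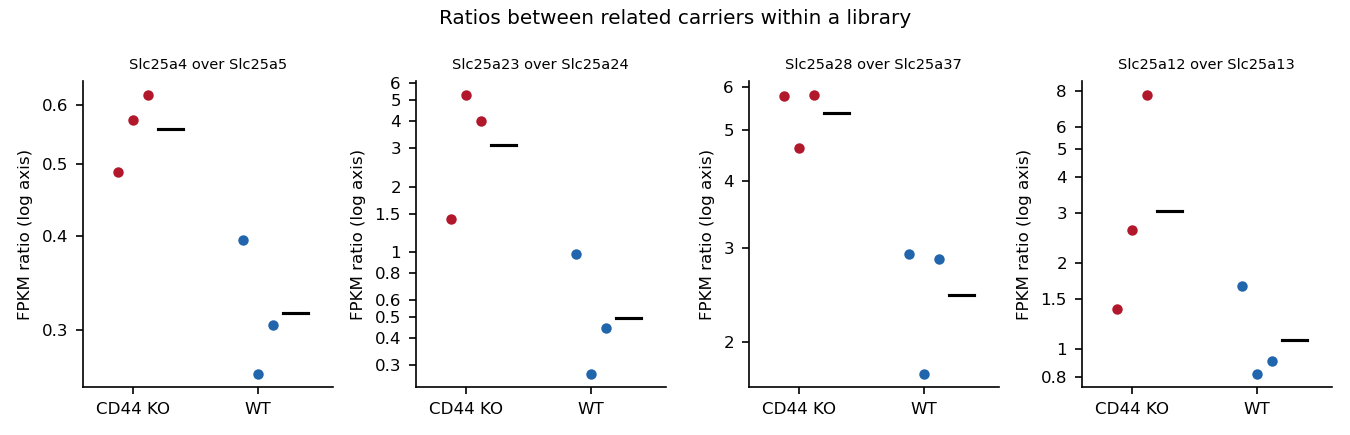
FPKM ratio of 4 pairs of related carriers in each library (points, log axis) with the geometric mean of each group (line), CD44 KO left of WT. The pairs were chosen after their values were seen. The first 3 pairs separate the groups, for instance Slc25a4 over Slc25a5 at 0.488 to 0.618 against 0.262 to 0.396, and the last does not.

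Slc25a29 and Slc25a47, which differed by similar amounts, are neighbours. On chromosome 12, Slc25a29 (108825873 to 108835883, minus strand) and Slc25a47 (108836046 to 108856815, plus strand) point away from each other with 162 bases between them in the GENCODE annotation of GRCm38. The near starts of Slc25a47 belong to non-coding transcripts, so the promoter of its coding transcript lies further away. The sequences below are from RefSeq, GRCm38.p6, and are given for the called carrier that has an entry and for this pair; of the 47 members, 36 matched a promoter entry, and no sequence is shown for Slc25a44. The stretch ahead of Slc25a42 is chr8:70212306-70212531 (minus strand), that between the pair is chr12:108835884-108836045 (minus strand, read towards Slc25a29), and that ahead of coding Slc25a47 is chr12:108850879-108851128 (plus strand). The last, shown for the abundant citrate carrier because it holds an E-box, lies ahead of Slc25a1 at chr16:17928220-17928469 (minus strand). Capitals mark a match to one of the motifs searched.
Slc25a42: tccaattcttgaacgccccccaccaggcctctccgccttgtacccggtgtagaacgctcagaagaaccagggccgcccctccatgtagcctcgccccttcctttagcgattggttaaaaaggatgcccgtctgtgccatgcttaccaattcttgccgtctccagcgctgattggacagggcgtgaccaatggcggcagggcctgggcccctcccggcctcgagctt
Slc25a29 to Slc25a47: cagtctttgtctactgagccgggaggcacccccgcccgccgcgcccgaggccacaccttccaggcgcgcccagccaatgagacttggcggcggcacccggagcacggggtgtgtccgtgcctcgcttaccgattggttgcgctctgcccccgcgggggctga
Slc25a47: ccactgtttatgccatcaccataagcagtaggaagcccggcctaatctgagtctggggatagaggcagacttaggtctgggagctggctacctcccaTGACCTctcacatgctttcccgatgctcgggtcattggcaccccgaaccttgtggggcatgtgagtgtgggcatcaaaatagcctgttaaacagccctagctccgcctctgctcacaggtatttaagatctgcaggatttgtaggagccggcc
Slc25a1: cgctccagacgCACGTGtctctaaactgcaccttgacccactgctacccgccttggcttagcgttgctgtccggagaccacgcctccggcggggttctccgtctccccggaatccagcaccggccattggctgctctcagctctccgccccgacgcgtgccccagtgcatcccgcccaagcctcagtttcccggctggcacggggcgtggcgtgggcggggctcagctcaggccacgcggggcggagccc

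The motifs were searched on both strands in the 250 bases ahead of each start, over 46 starts of the 36 matched carriers and 32851 starts of all genes. The E-box CACGTG was in 17.4% of carrier starts and 6.02% of all starts, and its carriers were Slc25a1, Slc25a13, Slc25a14, Slc25a15, Slc25a31, Slc25a33 and Slc25a36. The nuclear receptor element AGGTCA was in 8.7% and 14%, in Slc25a34, Slc25a39, Slc25a45 and Slc25a47, where it appears above as its reverse complement TGACCT. The NRF1 core GCATGCGC was in 4.35% and 2.26%. The ERR element TCAAGGTCA, which contains AGGTCA, was in 0 carrier starts and 0.387% of all starts. These shares describe letters in a window, not binding.

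SLC25 genes that carry other symbols were measured alongside. Ucp2, an uncoupling-protein relative, was at 492, 205 and 216 CPM in CD44 KO libraries, against 825, 1231 and 1288 CPM in WT libraries. All CD44 KO libraries were lower, with a log2 difference of -1.87 (SE 0.42, edgeR adjusted p = 0.0638). Ucp3 had a log2 difference of 0.82 (SE 0.39) and Mtch2 of 0.07 (SE 0.22). Mtch1, an outer membrane member, was at 165, 329.7 and 161 CPM in CD44 KO libraries, against 203, 146 and 182 CPM in WT libraries. Its log2 difference of 0.30 (SE 0.32) rested on CD44 KO replicate 2 and was -0.12 without it. Ucp1, the heat-producing uncoupling protein of brown fat, had 1, 0 and 0 counts in CD44 KO libraries, against 9, 10 and 12 counts in WT libraries, and was not tested.

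The machinery that inserts carriers into the inner membrane did not pass the test in any of 13 genes, with 3 positive and 10 negative log2 fold changes (median -0.09). The lowest p values belonged to Timm8a1, an intermembrane space chaperone, at -0.80 (SE 0.18, edgeR adjusted p = 0.065), and to Timm29, a subunit of the carrier translocase, at 0.53 (SE 0.15, edgeR adjusted p = 0.0882). Of 32 tested genes of oxidative phosphorylation, 0 were called, 26 had positive log2 fold changes (median 0.29), 6 (18.8%) were higher at an unadjusted p under 0.05 and 0 were lower, against 16.3% and 14.7% of all genes. Sdha, the catalytic subunit of complex II, had 0.75 (SE 0.19, edgeR adjusted p = 0.078) and Ndufs1, of complex I, 0.49 (SE 0.16, edgeR adjusted p = 0.105).

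Among 22 enzymes and channels that use the transported metabolites, 1 rose and 1 fell (median log2 fold change 0.22). Over all genes, 1.74% were called higher and 0.882% lower. At an unadjusted p under 0.05, 6 of the 22 (27.3%) were higher and 4 (18.2%) lower, against 16.3% and 14.7% of all genes. Pck1, which turns oxaloacetate into phosphoenolpyruvate for glyceroneogenesis in fat, was at 2178, 3013 and 2703 CPM in CD44 KO libraries, against 316, 184 and 221 CPM in WT libraries. The groups were far apart, with a rise of 3.45 on the log2 scale (SE 0.31, edgeR adjusted p = 0.0196). Its call was lost without CD44 KO replicate 3, WT replicate 2 or WT replicate 3 (adjusted p = 0.0785, 0.0988 and 0.189), with log2 differences of 3.29 to 3.71 in all 6 such fits. Cpt1b, the muscle-type enzyme that makes acylcarnitine, was at 1.54, 1.44 and 0.842 CPM in CD44 KO libraries, against 8.08, 4.69 and 9.71 CPM in WT libraries, and it fell by 2.55 (SE 0.42, edgeR adjusted p = 0.0402). The Cpt1b call held without CD44 KO replicate 1 (0.0264) and was lost without CD44 KO replicate 2, CD44 KO replicate 3, WT replicate 1, WT replicate 2 or WT replicate 3 (adjusted p = 0.0734, 0.122, 0.0665, 0.123 and 0.236), with log2 differences of -2.79 to -2.32 in all 6 such fits. The branched-chain amino acid enzymes that act on what Slc25a44 carries were picked after their values were seen. Bcat2, the mitochondrial transaminase, had a log2 difference of 1.44 (SE 0.33, edgeR adjusted p = 0.0665). The dehydrogenase subunits Bckdhb and Bckdha had 1.27 (SE 0.37, edgeR adjusted p = 0.0955) and 0.99 (SE 0.32, edgeR adjusted p = 0.107). In CPM each lay wholly higher in CD44 KO libraries, as did 19.7% of all genes tested.

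In the authors' deposited table of the same comparison, 8 of the 47 carriers were higher and 1 lower at an adjusted p under 0.05. The shares over all 22322 genes of that table were 6.07% and 5.94%. That total includes genes under the count filter used here, so these shares are not on the same base as those of the edgeR fit. Those higher in the authors' deposited table were Slc25a16, Slc25a22, Slc25a23, Slc25a26, Slc25a29, Slc25a42, Slc25a44 and Slc25a47, and the one lower was Slc25a5. That table gives Slc25a42 a log2 fold change of 1.11 and Slc25a44 one of 0.67.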

How the data were processed

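The authors deposited 1 table of expected counts (estimated counts per gene, not scaled) and FPKM, scaled by the authors for length and library size, for 6 libraries, and a comparison table with the authors' log2 fold changes and p-values. Per the submitters' processing notes the tools included RSEM, DESeq2, StringTie 1.3.1 and HISAT2, with no role given; build, annotation and strandedness are not stated there. Without strand, reads of overlapping genes cannot be told apart: exons of 12 of the 40 tested carriers share 5 to 1151 bases with another gene, Slc25a35 the most, and these include Slc25a10, Slc25a11, Slc25a23, Slc25a25, Slc25a26, Slc25a33, Slc25a37 and Slc25a46.

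The counts, rounded to whole numbers, went into edgeR 4.0.16 (filterByExpr, TMM, robust quasi-likelihood F-test, two-sided, no covariate, Benjamini-Hochberg over 13829 genes, threshold 0.05). CPM use TMM-scaled library sizes. DESeq2 1.42.0 and limma 3.58.1 on log2(FPKM + 1) or log2(FPKM + 0.1) were alternatives. The fit was tested on simulated counts in which every gene had the same dispersion, so that test does not show how it behaves on these libraries. Libraries held 15543317 to 18765009 counts. Groups came from the genotype labels. Nothing in the labels says the libraries came from separate mice, so p-values measure only the spread between these samples, which may be technical. No library duplicated another. Positions were looked up by Ensembl ID in GENCODE annotation of GRCm38, and promoters by symbol in RefSeq.

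Members and lists were chosen with earlier results of these data known. Values in every library are given for carriers called, the 12 of lowest p and the 8 of highest mean FPKM, and in other lists for genes called; where none was called, the tested genes of lowest p (at most 2) are named. Genes named outside this rule, and the carrier pairs, were chosen after their values were seen. Protein sequences were not analysed here. One tested carrier is counted but not reported here by name.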

Additional observations from a re-analysis of the deposited data

How the results depend on the processing

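The number of carriers called is the result that moved most. It was 2 higher and 0 lower, and 0 higher with a filter of at least 1 count in any library, a filter on a mean of at least 1 CPM, limma on log2(FPKM + 1) or the replicate block. DESeq2 gave 8 higher and 1 lower. Leaving out 1 library gave 0 to 7 higher and 0 to 2 lower, and at an unadjusted p under 0.05 it gave 0 to 5 lower, against 4 with all libraries. The replicate block gave 0 lower at that p and 0 calls over all genes. Deviations from the group mean correlated at -0.32, -0.22 and -0.02 between libraries that share a number, and at -0.18 to 0.29 between the others. Each group of 3 was centred on its own mean, which ties these correlations together, so they cannot decide whether the numbers pair the libraries. The median over carriers stayed between 0.04 and 0.15 across these settings.

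Of the single genes, Slc25a3 changed sign, at -0.01 with DESeq2, -0.04 with limma on log2(FPKM + 1), -0.04 with limma on log2(FPKM + 0.1) and -0.05 to 0.14 when leaving out 1 library. Slc25a51 was -0.11 with limma on log2(FPKM + 1), -0.11 with limma on log2(FPKM + 0.1) and -0.06 to 0.15 when leaving out 1 library. Leaving out 1 library also gave -0.31 to 0.02 for Slc25a39, -0.02 to 0.19 for Slc25a15, -0.29 to 0.07 for Slc25a30, -0.23 to 0.18 for Slc25a32, -0.01 to 0.13 for Slc25a40, -0.07 to 0.01 for Slc25a46, -0.18 to 0.79 for Slc25a53, -0.12 to 0.48 for Mtch1, -0.11 to 0.27 for Mtch2 and -0.16 to 2.08 for Got2. Counting carriers whose groups do not overlap in CPM, leaving out 1 library gave 4 to 10 lower and 13 to 18 higher, since fewer libraries separate more easily. Over 39 tested carriers and 14 settings, 19 fold changes reversed, 19 lost and 17 gained the threshold; the cause was not tested.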

Other observations

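Got2, from the list of enzymes that use the transported metabolites, had its highest value in CD44 KO replicate 2, the library with epididymal transcripts. Got2, the mitochondrial aspartate aminotransferase, was at 71.6, 491 and 46.5 CPM in CD44 KO libraries, against 47.5, 83 and 67.8 CPM in WT libraries, while its cytosolic partner Got1 was at 16.6, 8.47 and 7.12 CPM in CD44 KO libraries, against 17.7, 32.5 and 27.4 CPM in WT libraries. Both belong to the malate-aspartate shuttle that Slc25a11, Slc25a12 and Slc25a13 serve. Got1 had a log2 difference of -1.27 (SE 0.39, edgeR adjusted p = 0.102), and Acaca, which commits citrate-derived carbon to fatty acids, had 1.36 (SE 0.29, edgeR adjusted p = 0.0594). Not all of that list went this way: Me1 had -0.90 (SE 0.26, edgeR adjusted p = 0.0929) and Acly -0.12 (SE 0.22). These genes were picked after their values were seen.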
